A study of Mus musculus with 20 samples.

Results

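The mitotic and G2/M genes described here are 38 mouse genes taken from a fixed list of symbols and matched by Ensembl identifier, out of 47729 genes in each count table. All 38 were matched, and all 38 passed the expression filter. They comprise 11 genes of mitotic entry, 6 of the spindle checkpoint and its target ubiquitin ligase, 8 of the kinetochore and the chromosomal passenger complex, 5 of the spindle, 6 of the midzone and cytokinesis, and the chromosomal proteins Mki67 and Top2a. Their RNA was measured by sequencing of polyadenylated RNA from colon fibroblasts of C57BL6/J mice, grown as a flat culture in Advanced DMEM F12 with 10% serum.

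The 20 libraries fall into 5 groups of 4. Untreated wild-type fibroblasts are the reference. The other groups were kept for 24 h in medium conditioned by organoids, small tissue-like structures grown in culture. The organoid lines are named APTKA and APTK, and the labels do not expand these names. Both media also have an irradiated arm, of 5 fractions of 2 Gy, but which cells received the dose, those of the organoids or the fibroblasts, is not stated. Irradiated cells without conditioned medium, and cells in organoid medium that had met no organoid, were not analysed here. Each library is called by its group and the replicate number of its title (I to IV). No label ties a replicate to its own culture or animal, so p-values reflect only how far these libraries vary, and that variation may be technical.

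Cells leave G2 when cyclin B and its kinase Cdk1 become active, after the Cdc25 phosphatases remove the inhibitory phosphates and Plk1 and the Aurora kinases add to the drive. Most of the genes listed here are transcribed late in the cell cycle, through the B-Myb and MuvB complex and Foxm1 acting at a promoter element called the CHR, often with NF-Y bound at CCAAT boxes beside it. In resting cells and after p53 activation the DREAM complex holds the same promoters down. In the colon, mitoses are found mainly in the epithelial crypts, and fibroblasts divide mostly in culture or after injury.

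The promoters of the members are shown because they share these elements, which the choice of members did not use. RefSeq promoter windows of 300 bases (250 before and 50 after the annotated start, assembly GRCm38.p6) were matched by symbol for 31 of the 38 members, which have 33 windows. Aurkb, Ccna2, Cdc25c, Foxm1, Incenp, Kif20a and Tpx2 had no window, so no motif was searched for them. The CHR core was searched as TTTGAA and as TTCGAA on both strands, and the NF-Y box as CCAAT on both strands. On the opposite strand the first core reads TTCAAA and the box ATTGG, while the second core reads the same on both. A core and a box can overlap at their end letters only. The windows below belong to the 6 members that differed the most between groups, summed over the comparisons, among those with a window that holds a CHR core. Each is written 5′ to 3′ along the gene, with CHR cores and CCAAT boxes in capitals.
Plk1: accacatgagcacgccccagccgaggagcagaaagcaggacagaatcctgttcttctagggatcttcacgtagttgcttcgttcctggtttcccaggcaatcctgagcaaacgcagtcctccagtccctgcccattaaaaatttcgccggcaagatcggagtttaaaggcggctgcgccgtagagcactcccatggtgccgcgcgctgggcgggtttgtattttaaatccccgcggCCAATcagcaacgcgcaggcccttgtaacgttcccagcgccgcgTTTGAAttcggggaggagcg
Cdk1: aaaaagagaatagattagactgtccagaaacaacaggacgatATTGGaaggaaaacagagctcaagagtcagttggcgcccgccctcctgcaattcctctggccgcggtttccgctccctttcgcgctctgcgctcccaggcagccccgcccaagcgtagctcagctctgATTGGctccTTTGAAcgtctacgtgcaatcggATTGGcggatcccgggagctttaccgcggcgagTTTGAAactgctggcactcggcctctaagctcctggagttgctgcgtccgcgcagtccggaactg
Prc1: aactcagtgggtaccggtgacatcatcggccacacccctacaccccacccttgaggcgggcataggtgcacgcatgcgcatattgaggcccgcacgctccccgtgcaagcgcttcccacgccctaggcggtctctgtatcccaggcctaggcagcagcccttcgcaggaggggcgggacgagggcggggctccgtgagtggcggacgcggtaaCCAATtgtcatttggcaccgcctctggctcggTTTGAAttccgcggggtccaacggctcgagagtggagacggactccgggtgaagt
Ccnb2: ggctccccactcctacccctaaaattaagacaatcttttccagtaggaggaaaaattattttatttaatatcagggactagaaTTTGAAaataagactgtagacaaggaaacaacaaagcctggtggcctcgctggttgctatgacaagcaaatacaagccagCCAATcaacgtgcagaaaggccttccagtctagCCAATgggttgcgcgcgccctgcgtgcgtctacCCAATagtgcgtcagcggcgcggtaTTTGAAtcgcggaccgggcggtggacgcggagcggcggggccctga
Cdc25b: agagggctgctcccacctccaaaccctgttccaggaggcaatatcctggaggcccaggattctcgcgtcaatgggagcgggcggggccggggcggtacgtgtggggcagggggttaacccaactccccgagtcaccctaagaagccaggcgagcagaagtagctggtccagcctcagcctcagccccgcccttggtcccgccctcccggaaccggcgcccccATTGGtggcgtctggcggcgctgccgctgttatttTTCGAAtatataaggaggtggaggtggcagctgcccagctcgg
Bub1: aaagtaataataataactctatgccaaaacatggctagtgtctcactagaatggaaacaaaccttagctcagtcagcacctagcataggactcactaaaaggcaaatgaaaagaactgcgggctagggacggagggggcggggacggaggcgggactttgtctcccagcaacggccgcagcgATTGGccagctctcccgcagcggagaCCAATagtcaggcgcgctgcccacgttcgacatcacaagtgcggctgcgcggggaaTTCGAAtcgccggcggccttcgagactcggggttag

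The window of Plk1, the polo kinase, lies at chr7:122159185-122159484 on the plus strand, and holds 1 CHR core and 1 CCAAT box. That of Cdk1, the kinase that drives mitosis, lies at chr10:69352863-69353162 on the minus strand and holds 2 CHR cores and 3 boxes. That of Prc1, which bundles the microtubules of the midzone, lies at chr7:80294201-80294500 on the plus strand with 1 of each. Ccnb2, a cyclin B, has its window at chr9:70421505-70421804 on the minus strand, with 2 cores and 3 boxes. The windows of the phosphatase gene Cdc25b (chr2:131186698-131186997, plus strand) and of the checkpoint kinase gene Bub1 (chr2:127831810-127832109, minus strand) each hold 1 core, with 1 box in Cdc25b and 2 in Bub1. In 5 of these 6 promoters a CHR core stands within 20 bases of the annotated start, and in Plk1 it begins 30 bases after it.

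A CHR core was present in 24 of the 31 members with a window (77.4%), against 21.7% of all 27025 genes with a RefSeq window of the same length. CCAAT boxes were also present in 24 of 31 members (77.4%), against 41.1% of all genes, and both motifs together in 21 members (67.7%), against 8.61%. A second list of mitotic genes, of which 53 had a window, held the CHR core in 36 genes (67.9%). Among 36 genes of DNA replication it was present in 8 (22.2%), near the share in all genes. The core began in the first 50 bases after the start in 15 of 31 members (48.4%), where 2.40% of all genes have it. The members without a core in this window were Birc5, Ccnb1, Cenpe, Mad2l1, Nek2, Nuf2 and Nusap1. A match describes letters only, and a window without a match says nothing about binding.

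**Figure D1:**
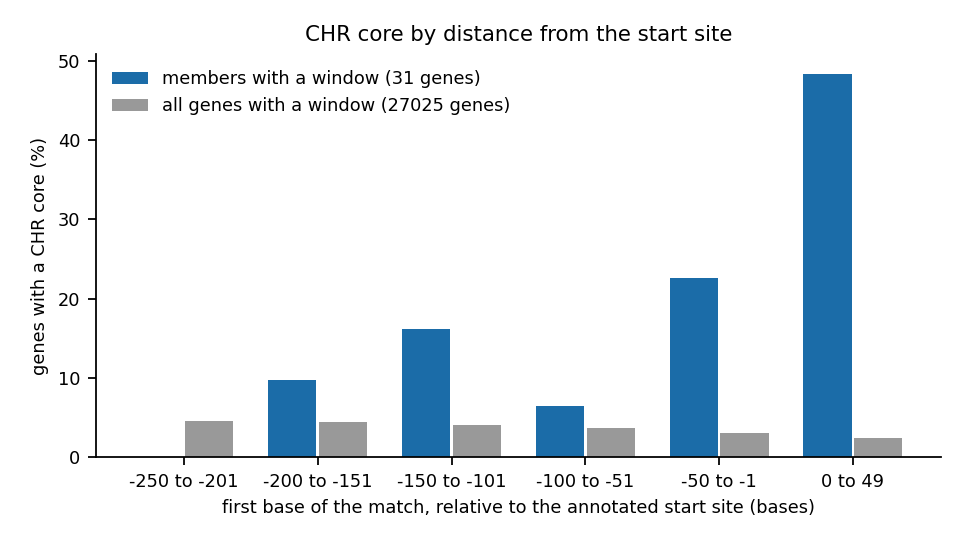
Share of genes whose promoter window holds a CHR core, by distance of its first base from the annotated start site in steps of 50 bases, for the 31 members with a window (blue) and all 27025 genes with one (grey). The members' share is highest in the first 50 bases after the start, at 48.4% against 2.40%.

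Library totals ran from 17259557 to 31634843 counts, and the lowest were irradiated APTK II and I. Each member was covered by 23 to 871 counts per library, and the 38 members together took 0.0236% to 0.0352% of the counts. The cells carried the defining transcripts of fibroblasts, such as Col1a1 at 6764 to 14574 CPM (counts scaled to a common library total, with totals adjusted by the trimmed mean of M-values). The defining markers Epcam (at most 0.105 CPM), Cdh1 (0.117) and Ptprc (0.195) were at or near 0 in every library, but not all markers of these lists were. The 10 epithelial markers summed to 1.61 to 2.98 CPM, with Krt19 at 0.468 to 1.51, and the 8 leukocyte markers summed to 3.65 to 8.12 CPM, nearly all of it Lyz2 (1.61 to 6.91) and Cd68 (1.04 to 3.35), levels that some members also had. Myh11 (195 to 383 CPM) and Mcam (105 to 293 CPM), which smooth muscle cells and pericytes also express, were present in all libraries. In bulk RNA, fewer dividing cells and less RNA per dividing cell cannot be told apart.

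Mitotic transcripts were low but measurable in all 20 libraries. Per kilobase of annotated exon, 37 of 38 members lay below the median of the 14820 genes tested, with a median percentile of 28.2. On this scale Cdc20, the activator of the anaphase-promoting complex, was the highest member at 4.82 CPM per kb. Ccnb2 followed at 3.89, Bub1b at 3.81 and Tpx2 at 3.58, while Cenpf was the lowest at 0.225. The ranges over the 20 libraries of all neighbours in this order overlapped.

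Summed over the 38 members, untreated fibroblasts had 251, 249, 255 and 282 CPM (mean 259 ± 15.1, SD, n = 4). Fibroblasts in APTKA medium had 279, 289, 312 and 298 CPM (295 ± 14.2), and those in APTK medium had 301, 304, 291 and 292 CPM (297 ± 6.33). The irradiated APTKA libraries had 249, 232, 231 and 262 CPM (244 ± 15). The irradiated APTK libraries were the most spread, at 302, 348, 306 and 265 CPM (305 ± 34.2). The irradiated APTKA group thus lay below all 4 APTKA libraries and overlapped the untreated ones. It had the lowest group mean for 25 of the 38 members and the highest for none, whereas APTKA medium without irradiation had the highest mean for 15 members and the lowest for none. Library II of irradiated APTK was the highest of its group in 25 members and library IV the lowest in 26.

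**Figure D2:**
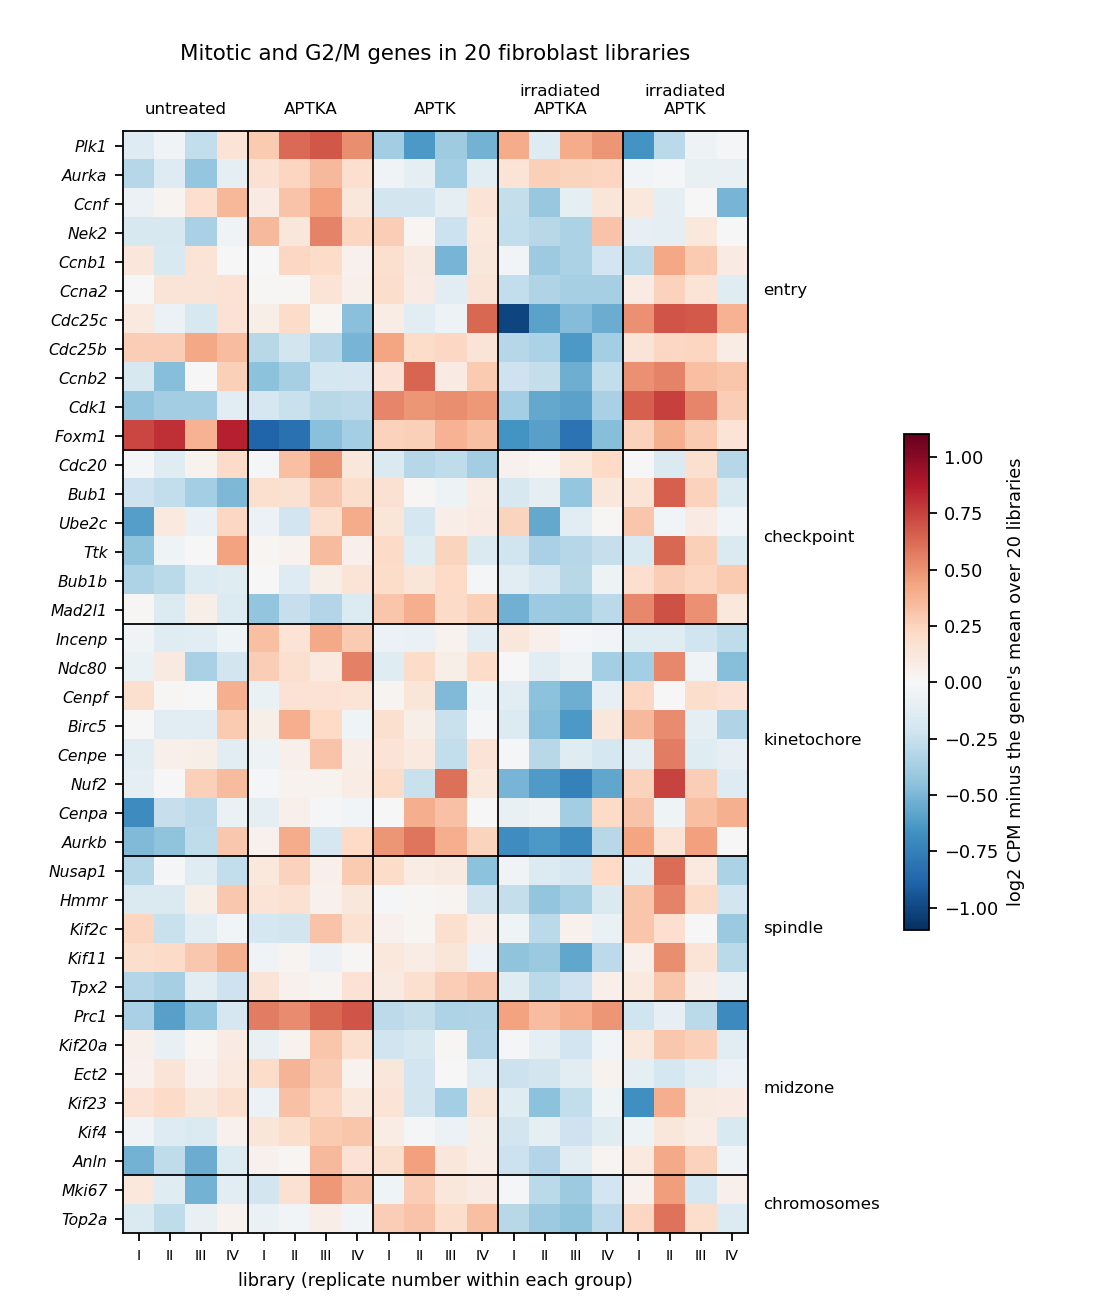
Heat map of the 38 members (rows, by role) in the 20 libraries (columns, by group and replicate number), as log2 CPM minus each gene's mean over the 20 libraries. Foxm1 and Prc1 separate the libraries of both APTKA groups from the others, Cdk1 and Mad2l1 are high in both APTK groups, and the irradiated APTKA columns are blue for most rows.

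Both media changed some mitotic genes against untreated fibroblasts, and more members rose than fell. In APTKA medium 12 of 38 members rose and 3 fell at a false discovery rate of 5% (edgeR quasi-likelihood test, Benjamini-Hochberg over 14820 genes). That is 39.5% of the members, where 61.4% of all genes tested passed (31.5% higher, 29.9% lower). The share of members that rose was thus near that of all genes, and the share that fell was smaller. The largest changes were the rise of Prc1 and the fall of Foxm1. In APTK medium 10 members rose and 2 fell (31.6%, against 43.4% of all genes, 20.9% higher and 22.5% lower), with the largest rise in Cdk1. Here the share that rose was somewhat above that of all genes, and the share that fell was again smaller. The median log2 fold change of the members was 0.14 in APTKA medium and 0.08 in APTK medium, beside 0.0031 and 0.0028 over all genes. Without scaling factors the median over all genes was 0.16 in APTKA medium and 0.062 in APTK medium. In APTKA medium the members then split into 20 higher and 2 lower, and all genes into 6319 higher and 3165 lower. Both comparisons share the untreated libraries. The libraries in APTKA medium and the untreated ones did not overlap for 15 of 38 members, and over all 14820 genes for 8318. Those in APTK medium and the untreated ones did not overlap for 11 members, and over all genes for 6343. A lack of overlap with the untreated libraries was thus common, and sets no single member apart from other genes.

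Markers of the fibroblasts themselves moved with APTKA medium. All 9 fibroblast markers fell in APTKA against untreated cells (median log2 fold change -0.81) and were lower than in APTK medium (median -0.86) and, with irradiation, lower than in irradiated APTK medium (median -0.72), 8 of 9 or all 9 under every alternative. Their summed level was 56028 to 63010 CPM in untreated, 28663 to 32766 in APTKA and 48291 to 53840 in APTK libraries. It was 29801 to 38814 CPM in irradiated APTKA and 41947 to 51293 in irradiated APTK libraries. Of 6 pericyte and smooth muscle markers 4 fell and 1 rose in APTKA medium (median -0.49). Lyz2 also fell there, with a log2 fold change of -1.54 (edgeR adjusted p = 1.20e-08), while Cd68 and Krt19 rose, with a log2 fold change of 0.60 and 0.86 (adjusted p = 0.0372 and 0.011). The call of Cd68 was lost without untreated II (adjusted p = 0.116), untreated III (0.103), APTKA I (0.0924) or APTKA IV (0.0773), and that of Krt19 without APTKA II (0.064). The part of these shifts in the members' values was not tested.

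The media differed from each other in a gene-by-gene way. Between APTKA and APTK medium 9 members were higher in APTKA and 6 lower (39.5%, against 62.9% of all genes, 31.1% higher and 31.8% lower). Plk1 and Prc1 stood at the top, and Foxm1, Cdk1, Ccnb2, Mad2l1 and Cdc25b at the bottom. With upper quartile scaling the split became 5 higher and 9 lower, and over all genes 3941 higher and 5471 lower (median log2 fold change -0.097). The balance of directions thus depends on the scaling, for the members as for all genes. Between the irradiated arms of the media 4 members were higher in APTKA and 21 lower (65.8%, against 61.3% of all genes, 30.1% higher and 31.2% lower), and the median log2 fold change was -0.34, beside -0.031 over all genes. Without irradiated APTK I and II, the libraries of lowest total, 3 members were higher and 15 lower, and the median was -0.21. Over all genes 4475 were then higher and 4166 lower, with a median of -0.0081. Leaving out irradiated APTK II alone gave a member median of -0.20, and leaving out irradiated APTK I alone gave -0.35. The smaller median thus went with library II. In the full set of libraries, the groups of 4 did not overlap for 13 members without irradiation and 16 with it. Over all 14820 genes this held for 8851 and 7628, so a lack of overlap between the media was common.

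These comparisons of the media share no library, but both come from a single fit. No label says whether the arms used separate medium or separate fibroblast cultures, so the readings may not be independent. Of the 15 members called without irradiation and the 25 called with it, 11 were called in both, which is 73.3% of the first set and 44.0% of the second. Over all genes 62.9% and 61.3% were called in these comparisons, so a large overlap would be likely for any list of genes. Plk1, Prc1, Aurka and Incenp were higher in APTKA medium both times, and Foxm1, Cdk1, Ccnb2, Cdc25b, Mad2l1 and Top2a lower both times. Kif20a was called in opposite directions. Across the 38 members the log2 fold changes had a Pearson correlation of 0.85 and a Spearman correlation of 0.85, a description across genes that share their libraries. Neither the overlap nor the correlation was computed over all genes, so neither can be called particular to the members. The value of the irradiated pair was the lower one for 37 of 38 members, and 21 of 38 had the same sign. The count of 37 is the same result as that for the difference of the irradiation effects below, since both are 1 contrast.

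**Figure D3:**
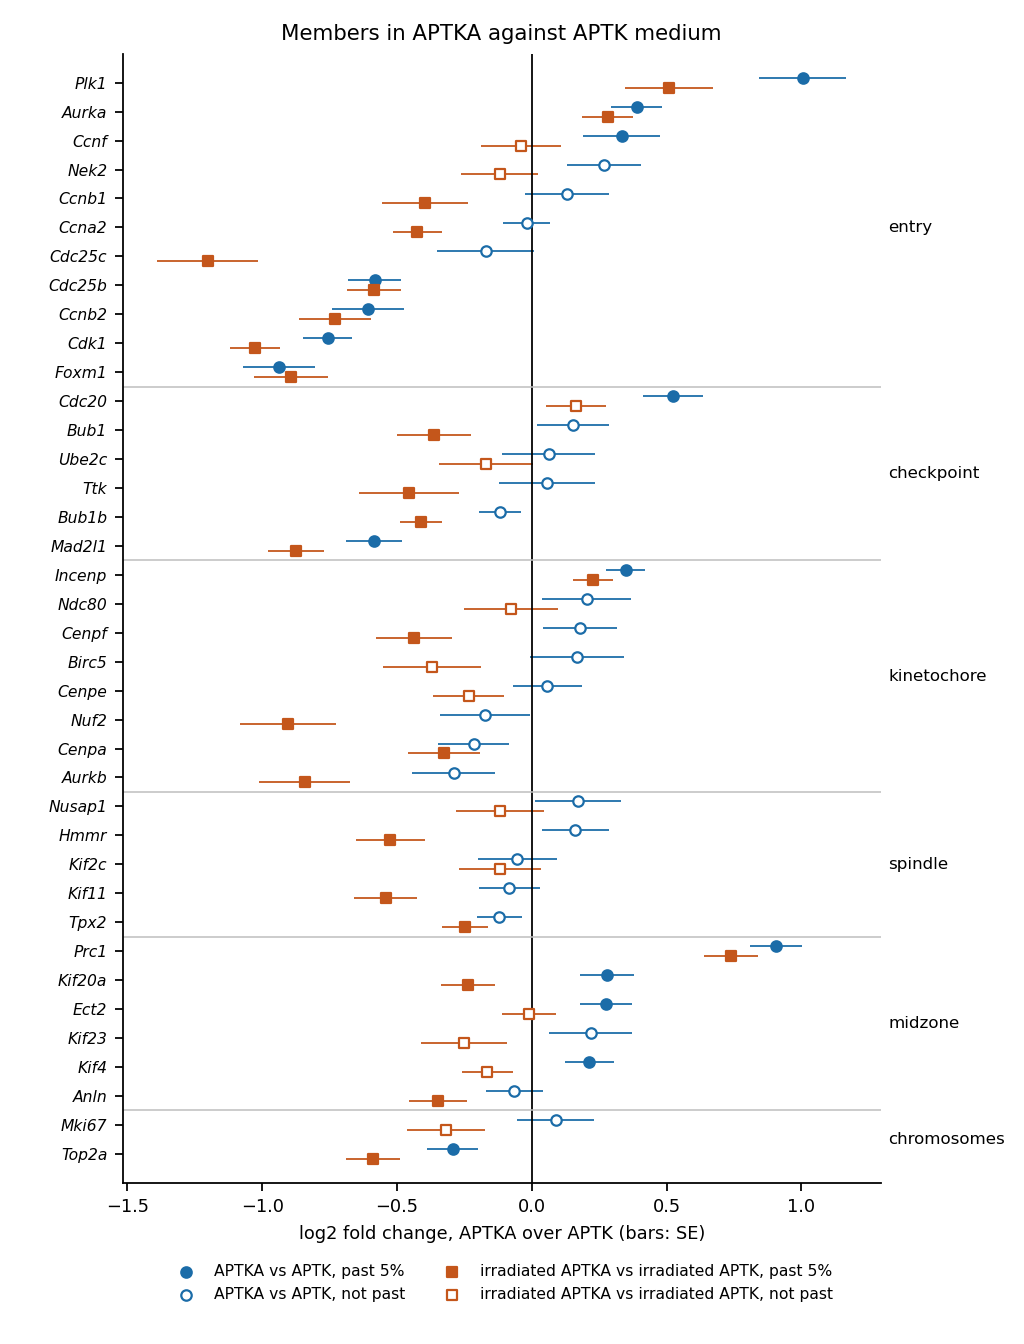
Log2 fold change of each member, APTKA over APTK medium, without irradiation (blue circles) and in the irradiated arms (orange squares), with SE as bars and filled symbols for genes past the 5% threshold. Plk1, Aurka, Incenp and Prc1 are filled on the right in both, and most orange squares lie to the left of their blue circle.

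Among the genes of mitotic entry, Foxm1, the transcription factor that drives the late cell cycle genes (chr6:128362967-128376146 on the mm10 build), passed the test in 4 of the 6 comparisons between groups, the most of any member. Untreated libraries I to IV had 5.68, 5.95, 4.45 and 6.16 CPM, APTKA libraries 1.85, 1.93, 2.48 and 2.63, and APTK libraries 4.07, 4.09, 4.46 and 4.29. The irradiated APTKA libraries had 2.16, 2.26, 1.94 and 2.47 CPM and the irradiated APTK libraries 4.07, 4.47, 4.17 and 3.79. Every APTKA library, irradiated or not, was below every library of the other groups, while untreated III overlapped the APTK values. Foxm1 fell in APTKA medium with a log2 fold change of -1.33 ± 0.13 (log2 ± SE, edgeR adjusted p = 1.10e-09) and in APTK medium with a log2 fold change of -0.39 ± 0.12 (adjusted p = 0.0096). APTKA was below APTK with a log2 fold change of -0.94 ± 0.13 without irradiation (adjusted p = 8.33e-07) and with a log2 fold change of -0.89 ± 0.14 with it (adjusted p = 2.29e-06). Exons of Foxm1 overlap those of Gm44596 and Tex52 on the same strand, whose reads the counting could share.

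Plk1 (chr7:122159439-122169873) rose in APTKA medium. It had 2.04, 2.2, 1.87 and 2.5 CPM in the untreated libraries, 2.76, 3.47, 3.61 and 3.22 in APTKA and 1.73, 1.45, 1.72 and 1.57 in APTK medium. The irradiated APTKA libraries had 2.99, 2.04, 2.99 and 3.15 CPM and the irradiated APTK libraries 1.43, 1.83, 2.17 and 2.23. APTKA libraries lay above all untreated and all APTK libraries, whereas irradiated APTKA II lay among the irradiated APTK values. Plk1 was 1.51-fold higher in APTKA than in untreated cells (log2 0.59 ± 0.16, edgeR adjusted p = 0.00167) and 2.01-fold higher than in APTK medium (adjusted p = 4.81e-06). Between the irradiated arms the difference was 1.42-fold (adjusted p = 0.00842), and it did not pass without irradiated APTK I and II together (adjusted p = 0.101). In APTK medium against untreated cells the log2 fold change was -0.41 ± 0.17 (adjusted p = 0.0534), which passed when untreated III was left out (adjusted p = 0.0417). Gm44985 overlaps Plk1 exons on the opposite strand, and the strand setting is not known.

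Cdk1 (chr10:69335146-69352938) rose in APTK medium. Its levels were 10.2, 10.6, 10.6 and 12.8 CPM in untreated, 12.2, 11.7, 11.2 and 11.4 in APTKA and 20.0, 19.4, 19.8 and 19.3 in APTK libraries. With irradiation they were 10.7, 9.38, 9.19 and 10.8 CPM in APTKA and 21.9, 23.3, 20.1 and 16.7 in APTK medium. All 8 libraries of the APTK groups were above all 12 others. Cdk1 rose 1.77-fold in APTK medium (log2 0.83 ± 0.09, edgeR adjusted p = 3.02e-08), while APTKA medium gave 0.07 ± 0.09 (adjusted p = 0.544). APTKA was below APTK with a log2 fold change of -0.76 ± 0.09 (adjusted p = 3.59e-08), and irradiated APTKA below irradiated APTK with a log2 fold change of -1.03 ± 0.09 (adjusted p = 1.94e-10).

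Ccnb2 (chr9:70407692-70421547), a partner of Cdk1, was also highest in the APTK groups. It had 5.12, 4.18, 5.78 and 6.95 CPM in untreated, 4.24, 4.49, 5.05 and 5.1 in APTKA and 6.45, 9.03, 6.14 and 7.04 in APTK libraries. The irradiated values were 4.94, 4.83, 4 and 4.8 CPM in APTKA and 8.19, 8.43, 7.26 and 7.14 in APTK medium. APTKA and APTK libraries did not overlap in either arm, but untreated IV reached into the APTK range. APTKA was below APTK with a log2 fold change of -0.61 ± 0.13 (edgeR adjusted p = 3.00e-04) and in the irradiated arm with a log2 fold change of -0.73 ± 0.13 (adjusted p = 3.53e-05). The rise in APTK medium over untreated cells, 0.37 ± 0.13 (adjusted p = 0.0241), was lost without untreated I (adjusted p = 0.068), untreated II (adjusted p = 0.115) or APTK II (adjusted p = 0.157). In APTKA medium the log2 fold change was -0.23 ± 0.14 (adjusted p = 0.147), and it passed without untreated II (adjusted p = 0.034).

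Cdc25b, the phosphatase that first activates Cdk1, averaged 7.86 ± 0.418 CPM in untreated cells (SD, n = 4), 4.99 ± 0.434 in APTKA and 7.48 ± 0.672 in APTK medium. It fell in APTKA medium with a log2 fold change of -0.66 (edgeR adjusted p = 1.63e-06) and stood below APTK in both arms, with a log2 fold change of -0.58 and -0.58. Spef1 overlaps it on the opposite strand. Aurka, the kinase of the spindle poles, rose in APTKA medium from 5.61 ± 0.593 to 7.81 ± 0.475 CPM (adjusted p = 8.74e-05) and exceeded APTK in both arms, with a log2 fold change of 0.39 and 0.28. Nek2, which splits the centrosomes, rose in APTKA medium with a log2 fold change of 0.50 (adjusted p = 0.00288). Ccnf, an F-box cyclin, exceeded APTK with a log2 fold change of 0.33 (adjusted p = 0.0424), a call that 5 of 8 leave-one-out fits ended (adjusted p 0.0757 to 0.128). These were the fits without APTKA II, APTKA III, APTK I, APTK II or APTK III.

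Ccna2, Ccnb1 and Cdc25c passed in no comparison of the media without irradiation and were lower in irradiated APTKA than in irradiated APTK medium. Cdc25c, a phosphatase of Cdk1, had 0.83, 1.11, 1.2 and 1.15 CPM in irradiated APTKA and 2.36, 2.7, 2.67 and 2.19 CPM in irradiated APTK libraries. These groups did not overlap, and the log2 difference of -1.20 ± 0.19 was the largest among the members there (edgeR adjusted p = 3.10e-06). The cyclins Ccna2 and Ccnb1 differed with a log2 fold change of -0.42 (adjusted p = 1.99e-04) and -0.40 (adjusted p = 0.0337). The Ccnb1 call was lost without irradiated APTKA II (adjusted p = 0.0964), irradiated APTKA III (adjusted p = 0.0768), irradiated APTKA IV (adjusted p = 0.0517), irradiated APTK II (adjusted p = 0.133) or irradiated APTK III (adjusted p = 0.104). Exosc9 overlaps Ccna2 and Gm3550 overlaps Cdc25c on the opposite strand.

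**Figure D4:**
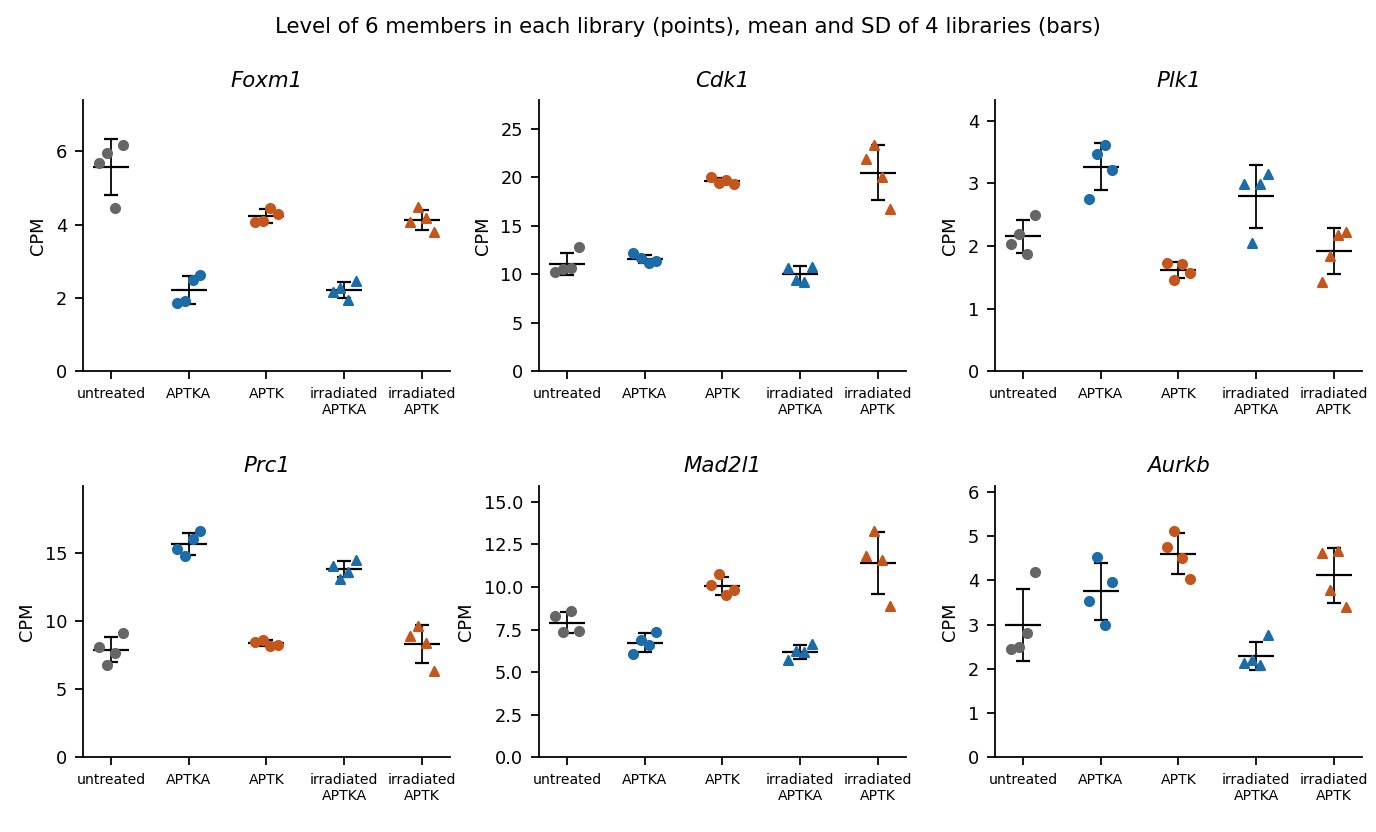
CPM of 6 members in each library (circles without irradiation, triangles with it), with the mean and SD of the 4 libraries of each group as bars, on axes that start at 0. Foxm1 is lowest and Prc1 highest in both APTKA groups, and Cdk1 and Mad2l1 are highest in both APTK groups.

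In the spindle checkpoint, which holds anaphase until every kinetochore is attached, Mad2l1 (chr6:66535390-66547220) showed the widest gap between the media. Its levels were 8.28, 7.38, 8.59 and 7.39 CPM in untreated, 6.05, 6.87, 6.57 and 7.37 in APTKA and 10.1, 10.8, 9.51 and 9.8 in APTK libraries. The irradiated APTKA libraries had 5.69, 6.22, 6.17 and 6.66 CPM and the irradiated APTK libraries 11.8, 13.3, 11.6 and 8.9. The APTK libraries lay above all untreated and all APTKA ones. Mad2l1 rose in APTK medium with a log2 fold change of 0.35 ± 0.10 (edgeR adjusted p = 0.00751), and APTKA was below APTK with a log2 fold change of -0.58 ± 0.10 (adjusted p = 2.02e-05) and, irradiated, with a log2 fold change of -0.87 ± 0.10 (adjusted p = 4.51e-08). Against untreated cells APTKA medium gave -0.24 ± 0.11 (adjusted p = 0.0546), which passed without untreated II (adjusted p = 0.0469), untreated IV (adjusted p = 0.0462) or APTKA IV (adjusted p = 0.0372).

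The kinase gene Bub1 and its relative Bub1b, which builds the checkpoint's inhibitor of Cdc20, rose in both media. Bub1 (chr2:127801122-127831865) had 3.72, 3.62, 3.36 and 3.1 CPM in untreated, 4.94, 4.91, 5.35 and 4.98 in APTKA and 4.92, 4.4, 4.21 and 4.63 in APTK libraries. With irradiation it had 3.85, 4.09, 3.26 and 4.76 CPM in APTKA and 4.84, 6.88, 5.19 and 3.9 in APTK medium. Neither medium overlapped the untreated libraries. The rise was 0.55 ± 0.14 in APTKA (edgeR adjusted p = 0.00113) and 0.40 ± 0.14 in APTK medium (adjusted p = 0.0234), the latter lost without untreated III (adjusted p = 0.0513), untreated IV (adjusted p = 0.0709) or APTK I (adjusted p = 0.0671). Bub1 was lower in irradiated APTKA than in irradiated APTK with a log2 fold change of -0.36 (adjusted p = 0.0229), a call lost without irradiated APTKA I (adjusted p = 0.0509), irradiated APTKA III (adjusted p = 0.0931) or irradiated APTK II (adjusted p = 0.194).

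Bub1b (chr2:118598211-118641591) had 12.8, 13.1, 14.5 and 14.7 CPM in untreated, 16.1, 14.6, 16.9 and 18 in APTKA and 18.6, 17.7, 18.8 and 16 in APTK libraries. The irradiated values were 14.8, 14.2, 13 and 15.5 CPM in APTKA and 18.4, 19.5, 19 and 19.8 in APTK medium, 2 groups that did not overlap. It rose with a log2 fold change of 0.25 ± 0.08 in APTKA (edgeR adjusted p = 0.00731) and with a log2 fold change of 0.37 ± 0.08 in APTK medium (adjusted p = 3.89e-04). The irradiated media differed with a log2 fold change of -0.41 ± 0.08 (adjusted p = 4.72e-05).

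Cdc20 (chr4:118432901-118437352), the checkpoint's target, was lowest in APTK medium. Its levels were 8.76, 8.11, 9.14 and 10.3 CPM in untreated, 8.85, 11.2, 12.5 and 9.72 in APTKA and 7.95, 7.15, 7.35 and 6.83 in APTK libraries, and 9.22, 9.01, 9.66 and 10.4 and 8.9, 7.97, 10.0 and 7.14 CPM in irradiated APTKA and irradiated APTK. Each APTK library was below each APTKA library and each untreated library. Cdc20 was higher in APTKA than in APTK medium with a log2 fold change of 0.52 ± 0.11 (edgeR adjusted p = 1.85e-04). Its fall in APTK medium, -0.31 ± 0.11 (adjusted p = 0.0267), was lost without untreated IV (adjusted p = 0.105), APTK II (adjusted p = 0.0595) or APTK IV (adjusted p = 0.0722). Elovl1 overlaps Cdc20 on the opposite strand. Ttk, the kinase that starts checkpoint signalling, was lower in irradiated APTKA than in irradiated APTK with a log2 fold change of -0.45 (adjusted p = 0.035), which 5 of 8 leave-one-out fits ended (adjusted p 0.0536 to 0.199). Those fits left out irradiated APTKA II, III or IV, or irradiated APTK II or III. Ube2c, the ubiquitin-conjugating enzyme of the anaphase-promoting complex, passed in no comparison and ran from 2.08 to 4.20 CPM.

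At the kinetochore, Aurkb (chr11:69045647-69051664), the kinase of the chromosomal passenger complex, passed in 3 of the 6 comparisons. It had 2.44, 2.5, 2.81 and 4.18 CPM in untreated, 3.53, 4.52, 3 and 3.96 in APTKA and 4.76, 5.13, 4.5 and 4.03 in APTK libraries. The irradiated APTKA libraries had 2.13, 2.2, 2.09 and 2.76 CPM and the irradiated APTK libraries 4.62, 3.78, 4.66 and 3.4. Untreated IV overlapped the APTK values, while irradiated APTKA lay below both APTKA and irradiated APTK. Aurkb rose in APTK medium with a log2 fold change of 0.62 ± 0.16 (edgeR adjusted p = 0.00252), and was lower in irradiated APTKA than in irradiated APTK with a log2 fold change of -0.84 ± 0.17 (adjusted p = 9.62e-05). The APTKA value against untreated cells, 0.33 ± 0.16 (adjusted p = 0.0829), passed without untreated IV (adjusted p = 0.00457) or APTKA III (adjusted p = 0.0368). The value against APTK, -0.29 ± 0.15 (adjusted p = 0.104), passed without APTKA II (adjusted p = 0.0458).

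Incenp (chr19:9872296-9899551), the scaffold of the same complex, was highest in APTKA medium. Its levels were 12.4, 11.6, 11.8 and 12.4 CPM in untreated, 16, 14.2, 17 and 15.6 in APTKA and 12.2, 12.2, 13.1 and 11.8 in APTK libraries. They were 13.9, 13.2, 12.6 and 12.5 CPM in irradiated APTKA and 11.7, 11.6, 10.9 and 10.5 in irradiated APTK libraries. The APTKA libraries were above those of every other group. Incenp rose in APTKA medium with a log2 fold change of 0.38 ± 0.07 (edgeR adjusted p = 5.74e-05) and exceeded APTK with a log2 fold change of 0.35 ± 0.07 (adjusted p = 1.53e-04) and, irradiated, with a log2 fold change of 0.23 ± 0.07 (adjusted p = 0.0104). The irradiated call was lost with upper quartile scaling, as was that of Aurka. Birc5, or survivin, the complex's targeting subunit, passed in no comparison in the full fit and ran from 1.94 to 4.30 CPM. Its log2 fold change between irradiated APTKA and irradiated APTK was -0.37 (adjusted p = 0.0768), which passed without irradiated APTKA IV (adjusted p = 0.021) or irradiated APTK IV (adjusted p = 0.0184).

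Nuf2 (chr1:169497934-169531464) and Ndc80 are partners in the complex that grips microtubules. Nuf2 had 2.48, 2.67, 3.2 and 3.4 CPM in untreated, 2.62, 2.73, 2.74 and 2.82 in APTKA and 3.07, 2.26, 4.06 and 2.89 in APTK libraries. The irradiated APTKA libraries, at 1.87, 1.73, 1.59 and 1.79 CPM, lay below all others, and the irradiated APTK libraries had 3.19, 4.47, 3.23 and 2.42 CPM. The irradiated media differed with a log2 fold change of -0.90 ± 0.18 (edgeR adjusted p = 8.45e-05), while for Ndc80 the difference was -0.08 ± 0.17 (adjusted p = 0.714). Whether these genes differ from each other was not tested. Ndc80 rose in APTKA medium with a log2 fold change of 0.42 (adjusted p = 0.0336), lost without untreated III (adjusted p = 0.105), untreated IV (adjusted p = 0.0707), APTKA I (adjusted p = 0.0524) or APTKA IV (adjusted p = 0.128).

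Cenpa (chr5:30666777-30674830), the histone H3 variant that marks centromeres, had 3.4, 4.61, 4.49 and 5.23 CPM in untreated, 5.11, 5.71, 5.44 and 5.37 in APTKA and 5.49, 7.23, 6.88 and 5.47 in APTK libraries. Irradiated APTKA gave 5.19, 5.29, 4.23 and 6.38 CPM and irradiated APTK 6.82, 5.33, 6.91 and 7.22. The rise in APTK medium was 0.50 ± 0.14 (edgeR adjusted p = 0.00387), with no overlap. In APTKA medium the value was 0.28 (adjusted p = 0.0755), which passed without untreated IV (adjusted p = 0.0301). The lower level in irradiated APTKA than in irradiated APTK, -0.32 (adjusted p = 0.0367), was lost in 6 of 8 leave-one-out fits, all but those without irradiated APTKA IV and irradiated APTK II (adjusted p 0.0631 to 0.148). Cenpf, a large kinetochore and nuclear matrix protein, was lower there with a log2 fold change of -0.44 (adjusted p = 0.00916). Cenpe, the kinetochore motor, passed in no comparison.

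Among spindle proteins, Tpx2 (chr2:152847964-152895321), which activates Aurka, rose in both media. It had 13.2, 12.9, 15.3 and 14.2 CPM in untreated, 18.3, 17.2, 16.9 and 18.5 in APTKA and 17.8, 18.7, 20.0 and 20.6 in APTK libraries, with no overlap of either medium with the untreated cells. Irradiated APTKA libraries had 15.2, 13.5, 14.2 and 17.2 CPM and irradiated APTK libraries 17.9, 20.5, 17.5 and 15.7. The rise was 0.35 ± 0.09 in APTKA (edgeR adjusted p = 8.37e-04) and 0.47 ± 0.09 in APTK medium (adjusted p = 5.90e-05). Irradiated APTKA was below irradiated APTK with a log2 fold change of -0.25 (adjusted p = 0.014), lost without irradiated APTKA II (adjusted p = 0.0659) or irradiated APTK II (adjusted p = 0.0994).

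Kif11 (chr19:37376403-37421859), the motor that pushes the spindle poles apart, fell in APTKA medium. Its levels were 9.2, 9.27, 9.88 and 10.5 CPM in untreated, 7.8, 8.2, 7.66 and 8.08 in APTKA and 8.68, 8.49, 8.78 and 7.68 in APTK libraries, then 5.91, 6.04, 5.39 and 6.59 CPM in irradiated APTKA and 8.35, 11.4, 8.91 and 6.52 in irradiated APTK libraries. The fall in APTKA medium, -0.29 ± 0.11 (edgeR adjusted p = 0.0249), was lost without untreated IV (adjusted p = 0.0768), APTKA I (adjusted p = 0.0524) or APTKA III (adjusted p = 0.0558). The irradiated media differed with a log2 fold change of -0.54 ± 0.12 (adjusted p = 2.25e-04), although irradiated APTK IV lay inside the irradiated APTKA range.

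Hmmr (chr11:40701395-40733422), a spindle and hyaluronan-binding protein, had 5.24, 5.22, 6.09 and 7.17 CPM in untreated, 6.49, 6.55, 6.05 and 6.35 in APTKA and 5.8, 5.89, 5.96 and 5.09 in APTK libraries. Irradiated APTKA gave 4.86, 4.33, 4.54 and 5.23 CPM and irradiated APTK 7.2, 8.54, 6.77 and 5.07. Hmmr passed only between the irradiated media, with a log2 fold change of -0.53 ± 0.13 (edgeR adjusted p = 8.43e-04, or 0.0602 without irradiated APTK I and II together), and irradiated APTK IV overlapped the lower group. Nusap1 (chr2:119618298-119651244), which binds spindle microtubules near chromatin, had 2.8, 3.45, 3.16 and 2.88 CPM in untreated, 3.77, 4.14, 3.61 and 4.24 in APTKA and 3.99, 3.67, 3.73 and 2.55 in APTK libraries. Its irradiated values were 3.39, 3.13, 3.06 and 4.05 CPM in APTKA and 3.19, 5.33, 3.75 and 2.73 in APTK medium. Nusap1 passed in no comparison, and reached 0.36 (adjusted p = 0.0569) in APTKA against untreated cells, with a pass without untreated II (adjusted p = 0.0468). Kif2c, which disassembles microtubule ends, passed in none. Oip5 overlaps Nusap1 on the opposite strand.

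At the midzone, Prc1 (chr7:80294450-80316259) set the APTKA libraries apart from all others. Its levels were 8.08, 6.81, 7.69 and 9.11 CPM in untreated, 15.3, 14.8, 16.1 and 16.7 in APTKA and 8.45, 8.64, 8.19 and 8.23 in APTK libraries. They were 14, 13.1, 13.7 and 14.5 CPM in irradiated APTKA and 8.9, 9.69, 8.42 and 6.36 in irradiated APTK libraries. All 8 libraries of the APTKA groups were above all 12 others. Prc1 was 1.98-fold higher in APTKA than in untreated cells (log2 0.98 ± 0.10, edgeR adjusted p = 1.50e-09) and 1.87-fold higher than in APTK medium (adjusted p = 6.40e-09). Irradiated, the fold over APTK was 1.67 (adjusted p = 3.38e-07), and APTK medium against untreated cells gave a log2 fold change of 0.08 ± 0.10 (adjusted p = 0.57). Rccd1 overlaps Prc1 exons on the opposite strand.

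Anln (chr9:22332012-22389188), the scaffold of the contractile ring, rose in both media. It had 13.2, 15.6, 13 and 17 CPM in untreated, 19.6, 19.2, 24.1 and 21.1 in APTKA and 21.4, 25.9, 20.6 and 19.9 in APTK libraries, without overlap between either medium and the untreated cells. Irradiated APTKA libraries had 16, 15.1, 17.4 and 19.3 CPM and irradiated APTK libraries 20.4, 25.2, 22.5 and 18.4. The rise was 0.51 ± 0.11 in APTKA (edgeR adjusted p = 1.97e-04) and 0.58 ± 0.11 in APTK medium (adjusted p = 9.89e-05). The irradiated media differed with a log2 fold change of -0.35 (adjusted p = 0.00706), lost without irradiated APTK II (adjusted p = 0.0512).

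The kinesin genes of the midzone gave weaker calls. Kif20a (chr18:34624613-34633277) had 10.0, 9.06, 9.73 and 10.2 CPM in untreated, 9.05, 9.88, 11.9 and 10.8 in APTKA and 8.26, 8.49, 9.69 and 7.68 in APTK libraries, and 9.44, 8.92, 8.3 and 9.38 and 10.4, 11.8, 11.5 and 8.86 CPM in irradiated APTKA and irradiated APTK. The groups overlapped in both comparisons of the media. It was higher in APTKA with a log2 fold change of 0.28 (edgeR adjusted p = 0.0165), lost without APTKA III (adjusted p = 0.0768) or APTK IV (adjusted p = 0.0616). It was lower in irradiated APTKA with a log2 fold change of -0.24 (adjusted p = 0.0434), lost with DESeq2 (an alternative count test) and in 6 of 8 leave-one-out fits, all but those without irradiated APTKA I and irradiated APTK IV (adjusted p 0.0514 to 0.164). Cdc23 overlaps Kif20a on the opposite strand.

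Kif4 (chrX:100625737-100727214), a motor that works with Prc1, had 5.88, 5.48, 5.43 and 6.24 CPM in untreated, 6.63, 6.9, 7.4 and 7.49 in APTKA and 6.41, 5.97, 5.78 and 6.32 in APTK libraries. Irradiated APTKA gave 5.26, 5.6, 5.16 and 5.52 CPM and irradiated APTK 5.83, 6.59, 6.42 and 5.39. The APTKA libraries were above the untreated and APTK libraries. The rise over untreated cells was 0.30 ± 0.09 (edgeR adjusted p = 0.00598). The excess over APTK, 0.21 (adjusted p = 0.043), was lost with DESeq2 and in 6 of 8 leave-one-out fits, all but those without APTKA I and APTK I (adjusted p 0.0515 to 0.11). Pdzd11 overlaps Kif4 on the opposite strand. Ect2, the exchange factor that switches on RhoA at the furrow, was higher in APTKA than in APTK medium with a log2 fold change of 0.28 (adjusted p = 0.0134), lost without APTKA II (adjusted p = 0.0626) or APTK II (adjusted p = 0.061). Kif23, a subunit of centralspindlin, passed in none, and between irradiated APTKA and irradiated APTK had a log2 fold change of -0.25 (adjusted p = 0.172), passing without irradiated APTK I (adjusted p = 0.0151).

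Of the chromosomal proteins, Top2a (chr11:98992943-99024189), the topoisomerase that untangles sister chromatids, was highest in the APTK groups. It had 23.9, 22, 25.3 and 27.4 CPM in untreated, 25.3, 26.1, 28.1 and 26.1 in APTKA and 32.1, 33.1, 30.6 and 33.6 in APTK libraries. Irradiated APTKA libraries had 21.6, 20.2, 19.7 and 21.9 CPM and irradiated APTK libraries 31.2, 40.3, 30.5 and 24.1. APTK lay above untreated and APTKA without overlap. Top2a rose in APTK medium with a log2 fold change of 0.39 ± 0.10 (edgeR adjusted p = 0.00189), and APTKA was below APTK with a log2 fold change of -0.29 ± 0.10 (adjusted p = 0.00987) and, irradiated, with a log2 fold change of -0.59 ± 0.10 (adjusted p = 1.07e-05). Without scaling factors the difference without irradiation did not pass (adjusted p = 0.0992). Gm23451 overlaps it on the same strand.

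Mki67 (chr7:135689784-135716361), the usual marker of cycling cells, had 12, 10.1, 7.73 and 10.2 CPM in untreated, 9.62, 12.4, 15.4 and 13.9 in APTKA and 10.8, 13.4, 12.1 and 11.8 in APTK libraries. Irradiated APTKA gave 11, 9.04, 8.42 and 9.6 CPM and irradiated APTK 11.5, 15.3, 9.68 and 11.5. All groups overlapped with the untreated libraries. Its rise in APTKA medium, 0.35 ± 0.14 (edgeR adjusted p = 0.0381), was lost in 6 of 8 leave-one-out fits, all but those without untreated I and APTKA I (adjusted p 0.0529 to 0.148). Irradiated APTKA against irradiated APTK gave -0.32 (adjusted p = 0.0626), which passed without irradiated APTKA I (adjusted p = 0.0337) or irradiated APTK III (adjusted p = 0.0205).

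Most mitotic transcripts had lower estimates in the irradiated APTKA arm. Against APTKA medium without irradiation, 37 of 38 members had a lower estimate, with a median log2 fold change of -0.32, while over all genes the median was 0.0044 and 48.4% of genes were lower. Only 3 members fell at the 5% threshold and none rose (7.89%, against 0.729% of all genes, 0.452% higher and 0.277% lower). A further 22 had an unadjusted p under 0.05, which makes 25 of 38, against 12.6% of all genes. The number of lower members was 35 to 38 and the median -0.38 to -0.28 over the alternatives that tested all members, each left-out library included.

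The 3 members that fell were Ccna2, the cyclin of S phase and G2, Aurkb and Kif4. Ccna2 went from 9.62, 9.64, 10.6 and 9.92 CPM in APTKA to 7.93, 7.58, 7.41 and 7.41 CPM in irradiated APTKA libraries, beside 9.56, 10.5, 10.5 and 10.6 CPM in untreated ones. The fall was -0.39 ± 0.09 (edgeR adjusted p = 0.0366), that of Aurkb -0.71 ± 0.17 (adjusted p = 0.039) and that of Kif4 -0.40 ± 0.09 (adjusted p = 0.037). The irradiated and APTKA libraries did not overlap for 17 of the 38 members, against 10.5% of all genes. All 3 that passed were among them, which adds little, since the test that picked them used the same libraries. Each call was close to the threshold. All 3 kept it without APTKA I. Ccna2 lost it without any other library of the comparison (adjusted p 0.0766 to 0.139), as did Kif4 (0.0606 to 0.131). Aurkb lost it without APTKA II (adjusted p = 0.164), APTKA IV (adjusted p = 0.113), irradiated APTKA I (adjusted p = 0.148), irradiated APTKA II (adjusted p = 0.0965) or irradiated APTKA III (adjusted p = 0.135). The next members, which did not pass, by adjusted p were Ect2 at -0.36 (adjusted p = 0.0759), Incenp at -0.26 (adjusted p = 0.0926) and Nuf2 at -0.64 (adjusted p = 0.095). Foxm1 at 0.01, Aurka at -0.01 and Ccnb2 at -0.02 were nearest to 0. Nek2, at -0.45 (adjusted p = 0.129), passed without irradiated APTKA IV (adjusted p = 0.0234), the library that was high for it.

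In the APTK arm no such shift was seen in the full set of libraries. Irradiated against plain APTK medium, no member passed (edgeR, against 1.38% of all genes, 0.547% higher and 0.837% lower), 3 had an unadjusted p under 0.05, and DESeq2 called 0. The median log2 fold change was 0.06, beside 0.0036 over all genes, and 15 of 38 members were lower. The largest values were Cdc25c at 0.41 ± 0.17 (adjusted p = 0.255) and Kif20a at 0.31 ± 0.10 (adjusted p = 0.116). Without library IV of irradiated APTK, Kif20a (adjusted p = 0.0132) and Hmmr (0.0391) passed as higher. Without libraries I and II the median was -0.06, with 22 of 38 members lower. Leaving out library II alone gave a median of -0.04, with 24 of 38 lower. Leaving out library IV alone gave 0.10, with 8 of 38 lower. The sign of the median thus changed when library II was left out.

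The test of the difference between the irradiation effects found no member past the 5% threshold (0.182% of all genes passed, 0.121% higher and 0.0607% lower), although 37 of 38 members had a more negative effect in APTKA medium and the median difference was -0.33. An unadjusted p under 0.05 was reached by 19 members, and DESeq2 called 2, Cdc25c and Hmmr, both more negative in APTKA. The largest difference was that of Cdc25c, -1.03 ± 0.26 (edgeR adjusted p = 0.108). Without irradiated APTK IV, the library lowest for 26 members, 5 passed, namely Hmmr, Kif20a, Kif11, Cdc25c and Ccna2 (adjusted p = 0.00413, 0.0149, 0.0229, 0.0257 and 0.0301). The irradiation effects of the media share no library, and their log2 fold changes had a Pearson correlation of -0.0010 across the 38 members.

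**Figure D5:**
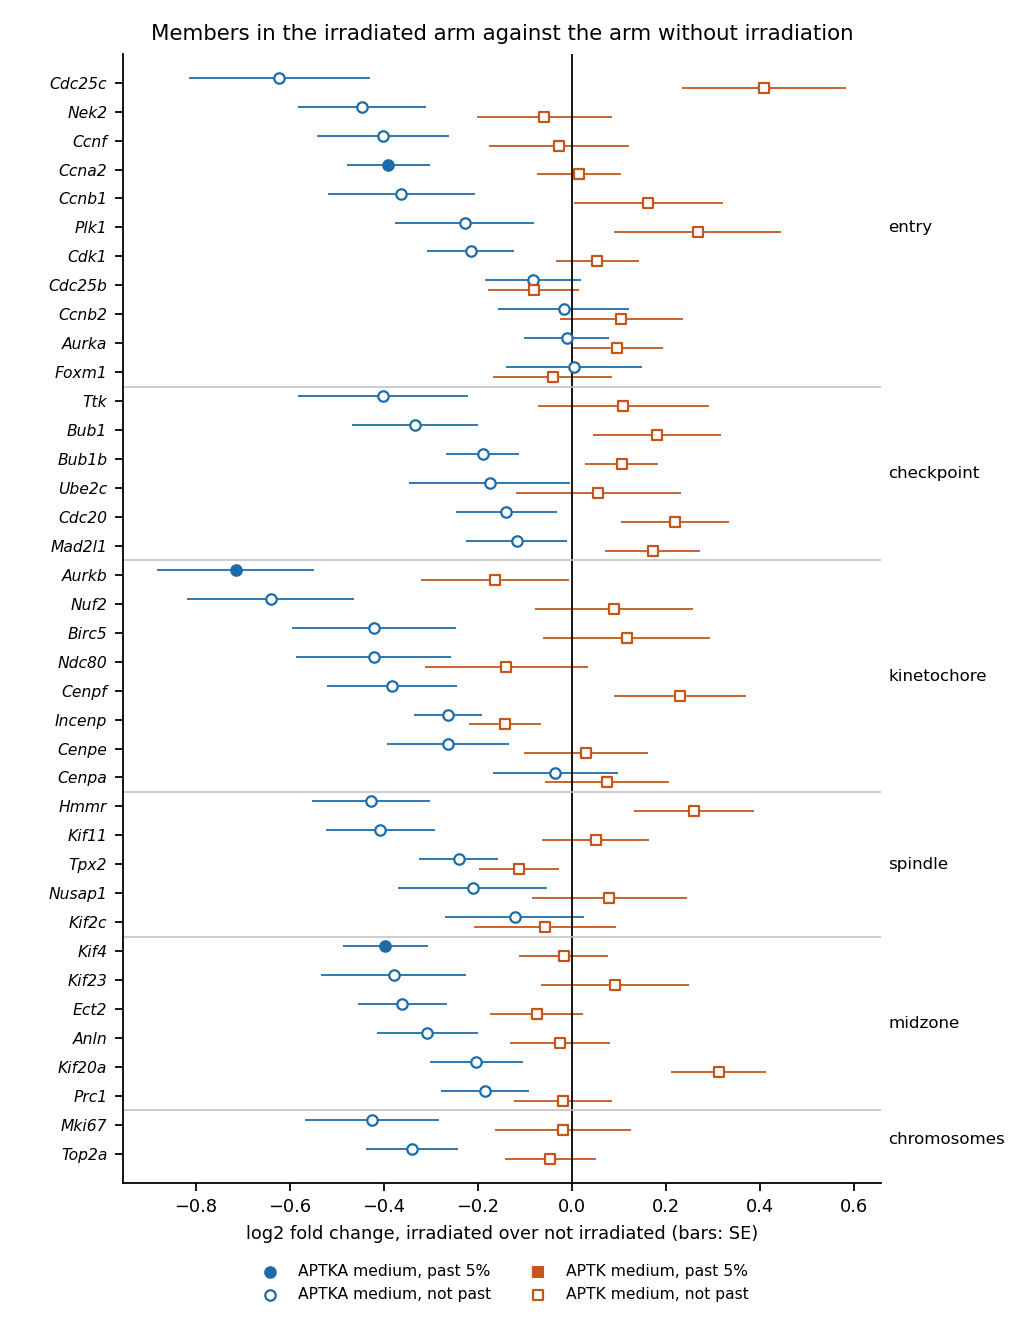
Log2 fold change of each member with irradiation, in APTKA medium (blue circles) and APTK medium (orange squares), with SE as bars and filled symbols for genes past the 5% threshold. Nearly all circles lie left of 0 and 3 are filled (Ccna2, Aurkb, Kif4), while the squares lie on both sides and none is filled.

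The lists of other cell cycle genes were tested in the same fit. Of 65 mitotic genes outside the list, 31 rose and 4 fell in APTKA medium. That is 53.8%, against 61.4% of all genes (31.5% higher and 29.9% lower). In APTK medium 15 rose and 2 fell (26.2%, against 43.4% of all genes, 20.9% higher and 22.5% lower). The shares called in any direction thus lay below those of all genes, and so did the shares that fell. The share that rose was above that of all genes in APTKA medium and near it in APTK medium. The largest changes in APTKA medium were the rise of Ckap2, a spindle protein, with a log2 fold change of 1.49 ± 0.09 (edgeR adjusted p = 1.67e-14) and the fall of Cks2, a small subunit that binds Cdk1, with a log2 fold change of -1.39 ± 0.47 (adjusted p = 0.0116, or 0.0522 without untreated IV). In APTK medium they were the fall of Gtse1, a microtubule protein that also restrains p53, with a log2 fold change of -0.999 and the rise of the kinase gene Pbk with a log2 fold change of 0.65 (adjusted p = 2.45e-10 and 0.00149). Gtse1 was higher in APTKA than in APTK medium with a log2 fold change of 1.53 without irradiation and with a log2 fold change of 1.43 with it (adjusted p = 9.75e-15 and 5.28e-14). Next in size, Cks2 was lower in APTKA than in APTK medium with a log2 fold change of -1.43 (adjusted p = 0.00869) and Sapcd2 lower in the irradiated arm with a log2 fold change of -1.20 (adjusted p = 0.00193). In irradiated APTKA 63 of the 65 had a lower estimate than in APTKA medium, with a median of -0.24, and 2 fell (3.08%, against 0.729% of all genes), Pbk with a log2 fold change of -0.68 (adjusted p = 0.0417) and Cdca2 with a log2 fold change of -0.56 (adjusted p = 0.0388). Both calls were lost in 7 of 8 leave-one-out fits, that of Pbk in all but the one without APTKA I (adjusted p 0.0664 to 0.199), that of Cdca2 in all but the one without irradiated APTKA II (0.0538 to 0.157).

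Of 45 genes of DNA replication, the step before mitosis, 34 rose and 2 fell in APTKA medium. That is 80.0%, against 61.4% of all genes (31.5% higher and 29.9% lower), and the median log2 fold change was 0.54. In APTK medium 25 rose and 5 fell (66.7%, against 43.4% of all genes, 20.9% higher and 22.5% lower), with a median of 0.25. In APTKA medium Mcm3 of the replicative helicase rose with a log2 fold change of 1.34 (edgeR adjusted p = 9.71e-13) and the primase gene Prim1 with a log2 fold change of 1.23 (adjusted p = 8.33e-11). In APTK medium Gmnn, the licensing inhibitor, rose with a log2 fold change of 1.34 (adjusted p = 1.06e-08) and the licensing factor Cdc6 with a log2 fold change of 1.05 (adjusted p = 2.41e-05). Orc1 of the origin recognition complex and the helicase gene Mcm7 were higher in APTKA than in APTK medium with a log2 fold change of 1.10 and 1.01 (adjusted p = 4.79e-06 and 1.50e-14). In the irradiated arm the cyclin gene Ccne2 was lower with a log2 fold change of -1.16 and Mcm7 higher with a log2 fold change of 0.91 (adjusted p = 1.51e-07 and 2.49e-13). In irradiated APTKA 42 of 45 had a lower estimate than in APTKA medium, and Mcm2, Mcm3 and Pola1 fell, with a log2 fold change of -0.50, -0.38 and -0.47 (adjusted p = 3.81e-04, 0.0338 and 0.0388). Of the 8 leave-one-out fits, Mcm2 passed in all, Mcm3 only in that without APTKA I (otherwise adjusted p 0.0723 to 0.113) and Pola1 in none (0.0501 to 0.14). Of the 15 genes of the anaphase-promoting complex, 4 were higher and 6 lower in APTKA medium (66.7%, near the 61.4% of all genes) and 2 higher and 2 lower in APTK medium (26.7%, against 43.4%). Anapc5 fell and Anapc10 rose in APTKA medium, with a log2 fold change of -0.70 and 0.62 (adjusted p = 2.09e-12 and 6.60e-06). Anapc13 fell and Anapc10 rose in APTK medium, with a log2 fold change of -0.32 and 0.31 (adjusted p = 0.0036 and 0.0181), and the call of Anapc10 was lost without untreated IV (0.0688) or APTK I (0.134). Anapc5 was lower in APTKA than in APTK medium in both arms, with a log2 fold change of -0.53 and -0.53 (adjusted p = 6.19e-10 and 6.32e-10), Anapc2 higher without irradiation with a log2 fold change of 0.42 (adjusted p = 9.90e-07) and Anapc13 lower in the irradiated arm with a log2 fold change of -0.41 (adjusted p = 2.75e-04). None of them passed in either irradiation comparison (edgeR, with 2 and 0 at an unadjusted p under 0.05).

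Of 42 regulators of mitotic entry and of mitotic transcription 7 rose and 15 fell in APTKA medium. That is 52.4%, against 61.4% of all genes (31.5% higher and 29.9% lower). In APTK medium 11 rose and 12 fell (54.8%, against 43.4% of all genes, 20.9% higher and 22.5% lower). Cdkn1a, which encodes the p53-induced inhibitor of the cyclin-dependent kinases, rose in APTKA medium with a log2 fold change of 0.62 ± 0.07 (edgeR adjusted p = 9.21e-09) and fell in APTK medium with a log2 fold change of -0.45 ± 0.07 (adjusted p = 7.02e-06). Trp53, the gene of p53 itself, rose with a log2 fold change of 0.53 and fell with a log2 fold change of -0.35 in the same comparisons (adjusted p = 2.24e-04 and 0.0173), and the fall was lost without untreated II (0.0961) or APTK I (0.0683). Irradiation gave Cdkn1a values of 0.01 ± 0.07 in APTKA and -0.05 ± 0.07 in APTK medium, neither past the threshold (adjusted p = 0.971 and 0.828). Cdkn1c, another such inhibitor, fell with a log2 fold change of -3.04 in APTKA and with a log2 fold change of -1.58 in APTK medium (adjusted p = 1.46e-18 and 1.25e-12), the largest changes of the list in both. Next in size, Gadd45a, a stress gene that restrains Cdk1, fell in APTKA medium with a log2 fold change of -1.31 (adjusted p = 9.86e-13) and E2f2 rose in APTK medium with a log2 fold change of 1.05 (adjusted p = 0.0358). The call of E2f2 was lost with DESeq2 (adjusted p = 0.0686), without a filter (0.059) and in the fits without untreated I, II or III, APTK I or APTK IV (0.0648 to 0.131). Between the media, Ccnd1, the cyclin of early G1, was lower in APTKA with a log2 fold change of -1.67 without irradiation and with a log2 fold change of -2.43 with it (adjusted p = 4.03e-08 and 4.10e-10). Cdkn1c was lower in APTKA than in APTK medium with a log2 fold change of -1.45 (adjusted p = 1.67e-11), and E2f8, a repressor of the E2F family, lower in the irradiated arm with a log2 fold change of -1.27 (adjusted p = 0.00687). E2f1, an activator of the cell cycle genes, rose in both, with a log2 fold change of 0.37 and 0.51 (adjusted p = 0.00316 and 2.57e-04). Mybl2, which encodes B-Myb, rose in APTK medium with a log2 fold change of 0.53 (adjusted p = 0.0495) and reached 0.33 in APTKA medium (adjusted p = 0.195). That rise was lost with DESeq2 (adjusted p = 0.0598) and in the fits without untreated I or III, or APTK II, III or IV (0.0517 to 0.193). Fbxo5, an inhibitor of the anaphase-promoting complex, fell in irradiated APTKA with a log2 fold change of -0.66 (adjusted p = 0.037), and Cdkn2c, an inhibitor of Cdk4 and Cdk6, in irradiated APTK with a log2 fold change of -0.30 (adjusted p = 0.0487). Among the leave-one-out fits Fbxo5 kept its call only without APTKA I or irradiated APTKA II (otherwise adjusted p 0.0803 to 0.144), and Cdkn2c only without irradiated APTK IV (otherwise 0.0721 to 0.181). Of the MuvB subunits, Lin9 rose in APTKA medium with a log2 fold change of 0.42 (adjusted p = 8.74e-04) and Lin54 fell in APTK medium with a log2 fold change of -0.43 (adjusted p = 9.70e-05). Fzr1, the G1 activator of the anaphase-promoting complex, rose in APTKA medium with a log2 fold change of 0.36 (adjusted p = 1.13e-04). Wee1, the kinase that restrains Cdk1, was lower in APTKA than in APTK medium with a log2 fold change of -0.34 (adjusted p = 0.0179), a call lost without scaling factors (0.104) and in the fits without APTKA I or III, or APTK III or IV (0.0581 to 0.0957). Wee1 was also lower in irradiated APTKA than in irradiated APTK, with a log2 fold change of -0.49 (edgeR adjusted p = 0.00147). The part of these regulators in the members' changes was not tested.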

How the data were processed

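The deposited files hold raw read counts for each gene as whole numbers, 1 file per library. The authors' tools, per the submitters' processing notes, were STAR 2.5.2a and featureCounts 1.5.0-p1 on the mm10 build, after bcl2fastq 2.20.0.422. The annotation release, the strand setting and how multiply mapped reads were handled were not given in the sources used here. Of the 47729 identifiers 47224 were matched to a symbol. Without a strand setting, reads of the 11 members whose exons overlap a gene on the opposite strand cannot be told from that gene's, and 3 members overlap a gene on the same strand. Exon overlaps, lengths and gene coordinates come from the GENCODE annotation of the same build, counted from 1.

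The main test was edgeR's quasi-likelihood test (version 4.0.16, R 4.3.3, TMM scaling, robust dispersions, default expression filter by group). A single fit with 5 group means over 20 libraries left 15 residual degrees of freedom and 14820 genes. Benjamini-Hochberg adjustment ran over these genes, with 5% as the false discovery rate. Dividing the size of a log2 fold change by the root of its F statistic gave its SE. CPM used TMM-scaled totals. The 7 comparisons were each medium against untreated, APTKA against APTK in both arms, irradiation in each medium, and the difference of the irradiation effects. DESeq2 1.42.0, other scalings, filters, fits, a replicate block and each library left out were alternatives, and the script was checked on simulated counts.

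Library values are printed in full for up to 4 members of each role, those past the threshold in the most comparisons. The members, their roles, the other lists and the tests were chosen with earlier results of these data known. From each other list the text names the 2 genes of largest change among those past the threshold in each of the 4 comparisons of media, all past it under irradiation, and 8 fixed regulators. No pair of libraries in a group was a duplicate, since the chi-square per degree of freedom ran from 4.79 to 88.2.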

Additional observations from a re-analysis of the deposited data

Results flagged for a closer look

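In 11 of 190 sets of 4 libraries (38 members in 5 groups), 1 library stood far from the other 3. The measure is its gap to the nearest library over the range of the group on the log2 CPM scale, set against Dixon's critical value. By chance about 1 in 20 sets exceeds it, so 11 is near the number that chance gives. No cause was tested for any of them.

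Among genes of mitotic entry, Cdk1 was high in untreated IV (12.8 CPM, the others 10.2 to 10.6, ratio 0.834). Ccna2 was low in untreated I (9.56 CPM against 10.5 to 10.6, ratio 0.895), and Ccnb1 in APTK III (1.83 CPM against 2.79 to 2.96, ratio 0.880). In irradiated APTKA, Ccnb2 was low in library III (4.00 CPM against 4.80 to 4.94, ratio 0.868) and Plk1 in library II (2.04 CPM against 2.99 to 3.15, ratio 0.875). Nek2 was high in library IV of that group (5.52 CPM against 3.49 to 3.67, ratio 0.888).

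Among genes of the checkpoint and kinetochore, Ttk was high in APTKA III (2.83 CPM against 2.25 to 2.31, ratio 0.885) and Ube2c low in APTK II (2.75 CPM against 3.33 to 3.46, ratio 0.833). Cenpe was low in APTK III (5.56 CPM against 7.23 to 7.43, ratio 0.907) and high in irradiated APTK II (9.86 CPM against 6.10 to 6.28, ratio 0.939). Cenpf was low in APTKA I (3.26 CPM against 3.80 to 3.83, ratio 0.959).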

How the results depend on the processing

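No called member changed sign under any alternative. For APTKA against untreated cells the 15 calls were 13 to 17 with each library left out, for APTK against untreated cells 10 to 12 (12 in the full fit), for APTKA against APTK 12 to 15 (15) and for the irradiated media 19 to 25 (25). Of these calls 12, 9, 10 and 14 were ended by no alternative in which the member was tested. Irradiated APTKA against APTKA had 3 members called, but 8 with DESeq2, 5 without scaling factors, 7 without an expression filter, 10 when only the 2 groups were fitted, and 0 to 3 with each library left out. Irradiated APTK against APTK had 0, and 0 to 2 with each library left out. The difference of the irradiation effects had 0, 2 with DESeq2, 1 without a filter, and 0 to 5 with each library left out. With a filter of 5 CPM 23 members were tested. The replicate block, whose numbers share only a label (24 correlations of same-numbered libraries ran from -0.0956 to 0.0959, and 8 of 24 were best with their own number), gave 0 calls for irradiated APTKA against APTKA, 15 and 12 for APTKA and APTK against untreated cells, 14 and 24 for the media without and with irradiation, and 0 for the other comparisons. Outside the members, the block ended the calls of Pbk in irradiated APTKA (adjusted p = 0.0611) and Cdkn2c in irradiated APTK (0.0595), and a fit of only its groups that of Cdkn2c (0.208).

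Over all genes, irradiated APTKA against APTKA called 108 genes, but 307 with DESeq2, 316 without a filter, 512 with only its groups and 34 to 146 with each library left out. Irradiated APTK against APTK called 205, but 439, 492, 10 and 32 to 1271, and 27 without irradiated APTK I and II. The difference of the effects called 27, but 114 with DESeq2, 209 without a filter and 4 to 307 with each library left out. The members had 23 to 871 counts per library, which limits how small a change could be detected.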
